A study of Homo sapiens with 8 samples.

Results

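The genes described here encode the guidance ligands and receptors known from the wiring of the nervous system, which fibroblasts also make: Eph receptors and ephrins, semaphorins with plexins and neuropilins, netrins with UNC5 receptors, and Slits with Robo receptors. Members were the protein-coding genes whose symbols belong to these families, 68 of the 58825 genes in the deposited table. By role they were 9 EphA and 5 EphB receptors, 5 ephrin-A and 3 ephrin-B ligands, 7 class 3 (secreted) and 13 class 4 to 7 (membrane) semaphorins, 9 plexins, 2 neuropilins, 4 netrins, 4 UNC5 receptors, 3 Slits and 4 Robo receptors. Of these, 47 had enough reads to be tested, at least 10 at the median library size in 2 or more libraries, and 21 did not. SEMA6B passed through 1 group alone, WT clones with 4-OHT, so its calls that involve this group support nothing. They are still included in the counts of calls below. ROBO4 reached the read minimum only in libraries with 4-OHT, and EFNA3 only in libraries without it. Their 4-OHT responses are therefore not independent of the filter.

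RNA came from BJ, a skin fibroblast line, in a derivative labelled BJ-HRAS. All 4 groups carried that background. They were SNORA13 knockout (KO) clones 66 and 69 given 100 nM (Z)-4-hydroxytamoxifen (4-OHT) for 7 days, the same KO clones without it, wild-type (WT) clones 15 and 54 given 4-OHT for 7 days, and the same WT clones without it. SNORA13 is a small nucleolar RNA of the H/ACA class. In cells of this kind 4-OHT, a ligand of the oestrogen receptor, is used to switch on a receptor-RAS fusion. Each genotype rested on 2 clones, so a difference between KO and WT cannot be told apart from other differences between those clones. With 1 library per clone and state, the spread behind the p-values mixes differences between clones, cultures and libraries, which cannot be told apart. It was pooled over the 4 groups and drawn towards that of other genes.

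The 8 libraries held 22.1 to 24.9 M reads. SNORA13 had 0 reads in all 4 KO libraries, and 5 and 7 reads in WT clones 15 and 54 with 4-OHT against 6 and 4 without it. No label spells out which column of the table held the untreated library of a clone. A minus sign after the clone number was read as 4-OHT negative, and under that reading 8 of 8 genes known to be induced by RAS signalling were higher with 4-OHT in each genotype. All 13 fibroblast markers were detected, and summed to 3921 to 4747 RPKM with 4-OHT and 5220 to 5990 RPKM without it. By the test described below, 5 rose and 7 fell in KO clones, and 3 rose and 7 fell in WT clones. Over all tested genes 28.9% rose and 27.0% fell in KO clones, and 25.4% and 23.7% in WT clones. DCN averaged 1.08 RPKM in KO clones with 4-OHT and 73.4 without it, and 0.933 and 61.4 in WT clones. VIM averaged 1157 and 776 in KO clones, and 1262 and 794 in WT clones. Several defining markers of other cell types were at or near 0: KRT5 and KRT14 (epithelial) and ELAVL4 (neural) had 0 reads everywhere, and CDH5 and KDR (endothelial) had at most 2 reads in a library. Of 9 epithelial markers 5 had at most 3 reads, and the list, led by KRT18 and KRT8, which cultured fibroblasts can also express, summed to 265 to 295 RPKM with 4-OHT and 488 to 799 without it. Of 8 immune markers 3 had at most 3 reads, but the list summed to 9.05 to 15.4 RPKM with 4-OHT and 9.18 to 16.7 without it. CD14 had 277 to 568 reads over the 8 libraries, PTPRC 35 to 332 and LYZ 30 to 66, and the part of such RNA in the results was not tested. Fewer cells and less RNA per cell cannot be told apart in these bulk libraries.

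Guidance cues act by steering or repelling the cell that carries the receptor. Ephrins stay on the cell surface and meet Eph receptor kinases on the neighbouring cell, with signals passing both ways. Semaphorins act through plexins, which turn off small GTPases of the RAS family and change adhesion, and secreted class 3 semaphorins mostly need a neuropilin to hold them on the plexin. Netrins are laminin-related proteins read by DCC, neogenin and UNC5 receptors, and Slits bind Robo receptors. In connective tissue the same proteins are known for cell sorting, contact repulsion of fibroblasts and the patterning of vessels and nerves.

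With 4-OHT the guidance genes were remodelled in both genotypes, with more members falling than rising. Of the 47 tested members, 13 rose and 23 fell in KO clones, where 28.9% of all 16485 tested genes rose and 27.0% fell (limma, Benjamini-Hochberg adjusted p under 0.05). In WT clones 10 rose and 22 fell, against 25.4% and 23.7% of all genes. The 10 include SEMA6B, which was tested only through WT clones with 4-OHT. ROBO4 is among the members that rose in both genotypes, and EFNA3 among the 23 that fell in KO clones. These responses of ROBO4 and EFNA3 are not independent of the filter. The median log2 change of the members was -0.46 in KO clones and -0.64 in WT clones, beside 0.00 for all genes in each. Their median absolute log2 change was 1.27 in KO and 0.83 in WT clones, against 0.52 and 0.45 for all genes. Members that rose in both genotypes numbered 8, which is 61.5% of those that rose in KO and 80.0% of those that rose in WT clones, beside 68.0% and 77.4% over all genes. Members that fell in both numbered 19, or 82.6% of those that fell in KO and 86.4% of those that fell in WT clones, beside 67.6% and 77.1% over all genes. The shares were thus near those of all genes for members that rose, and above them for members that fell. Whether they differ from those of all genes was not tested. UNC5B was called in opposite directions, and 7 members were called in neither genotype.

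**Figure D1:**
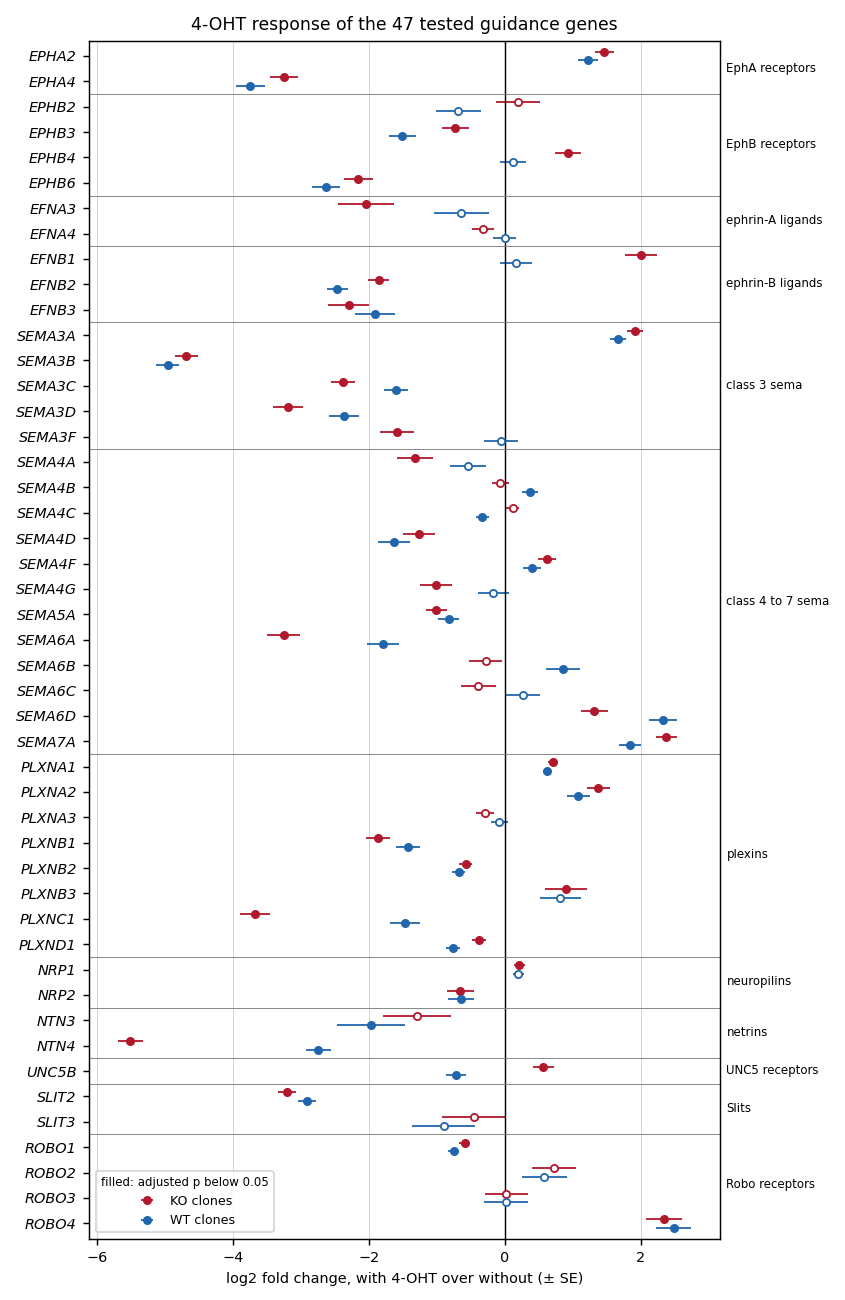
Log2 fold change with 4-OHT over without (x axis, ± SE of the fit) for each of the 47 tested members, grouped by role, with KO clones in red above WT clones in blue. Filled points have an adjusted p below 0.05. NTN4 and SEMA3B lie farthest to the left, and SEMA7A, ROBO4 and SEMA6D farthest to the right.

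Values below are RPKM, reads per kilobase of 1 listed transcript, scaled to the size of the library, divided by a scaling factor per library (TMM, trimmed mean of M values). For a gene with a 1 kb transcript, a single read equalled 0.0401 to 0.0453 RPKM. Values are listed for KO clones 66 and 69 and for WT clones 15 and 54, always in that order. Folds are on the log2(RPKM + 0.1) scale, where changes of genes with low values come out too small.

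Among the Eph receptors, the RNA of EPHA4 fell with 4-OHT while that of EPHA2 rose. EPHA2, the main EphA kinase of many epithelial and tumour cells, lies on chromosome 1 at 16124337 to 16156087 on the minus strand (GRCh38). It measured 77.7 and 70.2 RPKM in KO clones with 4-OHT and 29.7 and 23.9 without it, and 112 and 107 in WT clones with 4-OHT and 41.5 and 52.5 without it. Every library with 4-OHT was above every library without it. EPHA2 rose 2.76-fold in KO clones (log2 1.47 ± 0.14 SE, adjusted p = 0.000117) and 2.34-fold in WT clones (log2 1.22 ± 0.14 SE, adjusted p = 0.000386). EPHA4, which binds ephrins of both classes, measured 2.63 and 2.47 RPKM in KO clones with 4-OHT and 24.3 and 25.9 without it. In WT clones it measured 1.24 and 1.98 RPKM with 4-OHT and 25.3 and 19.7 without it. It fell 9.51-fold in KO clones (adjusted p = 2.22e-05) and 13.4-fold in WT clones (adjusted p = 1.90e-05), with no overlap between the states in either genotype. EPHA2 made up 96.4% of the summed EphA RPKM in KO clones with 4-OHT and 51.4% without it, and 98.4% in WT clones with 4-OHT and 67.2% without it.

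EPHB4, the receptor for ephrin-B2 at vessel borders, was the most abundant EphB receptor. It measured 20.1 and 22.7 RPKM in KO clones with 4-OHT against 12.3 and 10.3 without it, and rose 1.9-fold (log2 0.92 ± 0.19 SE, adjusted p = 0.00468). In WT clones it measured 13.4 and 16.5 RPKM with 4-OHT and 11.3 and 16.4 without it, where the groups overlapped and no call was made (adjusted p = 0.617). The difference between these responses was not called either (log2 0.80 ± 0.27 SE, adjusted p = 0.12). EPHB6, a member of the family that lacks kinase activity, fell 4.46-fold in KO clones and 6.21-fold in WT clones (adjusted p = 0.00013 and 7.80e-05). EPHB3, another ephrin-B receptor, averaged 1.11 ± 0.12 RPKM in KO clones with 4-OHT and 1.91 ± 0.30 without it, and 0.779 ± 0.039 in WT clones with 4-OHT and 2.42 ± 0.40 without it (SD, n = 2 clones each). It fell 1.66-fold in KO clones (adjusted p = 0.0151) and 2.85-fold in WT clones (adjusted p = 0.00065). EPHB2 had 73 and 98 reads in KO clones with 4-OHT and 88 and 65 without it, and 11 and 24 in WT clones with 4-OHT and 28 and 62 without it, and no called response (adjusted p = 0.644 in KO and 0.123 in WT clones).

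The balance of the ephrin-B ligands shifted with 4-OHT from EFNB2 to EFNB1 in both genotypes. EFNB2, a transmembrane ligand known from arteries, measured 10.4 and 13.6 RPKM in KO clones with 4-OHT and 45.4 and 41.3 without it, and 6.73 and 6.25 in WT clones with 4-OHT and 40.5 and 32.6 without it. It fell 3.63-fold in KO clones (log2 -1.86 ± 0.15 SE, adjusted p = 5.60e-05) and 5.53-fold in WT clones (log2 -2.47 ± 0.15 SE, adjusted p = 2.68e-05). EFNB3 also fell, 4.93-fold in KO and 3.76-fold in WT clones. EFNB1 rose 4.02-fold in KO clones and had no called response in WT clones, as described further on. EFNB1 made up 55.3% of the summed ephrin-B RPKM in KO clones with 4-OHT and 7.49% without it, and 59.2% in WT clones with 4-OHT and 19.6% without it. An antisense gene, AL138689.2, covers 26.2% of the exon bases of EFNB2 and had 4 to 33 reads. The summed ephrin-B level was 27.7 ± 1.3 RPKM in KO clones with 4-OHT and 49.7 ± 3.1 without it, and 16.7 ± 1.6 in WT clones with 4-OHT and 46.8 ± 2.1 without it (SD, n = 2 clones each).

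Ephrin-A ligands, the GPI-anchored partners of EPHA2, were scarce in every group. EFNA4 was the most abundant, with 2.35 and 1.79 RPKM in KO clones with 4-OHT and 2.54 and 2.65 without it, and 2.28 and 2.54 in WT clones with 4-OHT and 2.58 and 2.27 without it. Its response was not called in KO (log2 -0.32 ± 0.16 SE, adjusted p = 0.131) or WT clones (log2 -0.01 ± 0.16 SE, adjusted p = 0.983). EFNA3 had 0 and 2 reads in KO clones with 4-OHT and 15 and 21 without it, and fell there by a log2 change of -2.05 ± 0.41 (SE; adjusted p = 0.00412). It reached the read minimum only in libraries without 4-OHT, so it was tested through the state where it was high. EFNA1, EFNA2 and EFNA5 had at most 2 reads in any library.

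**Figure D2:**
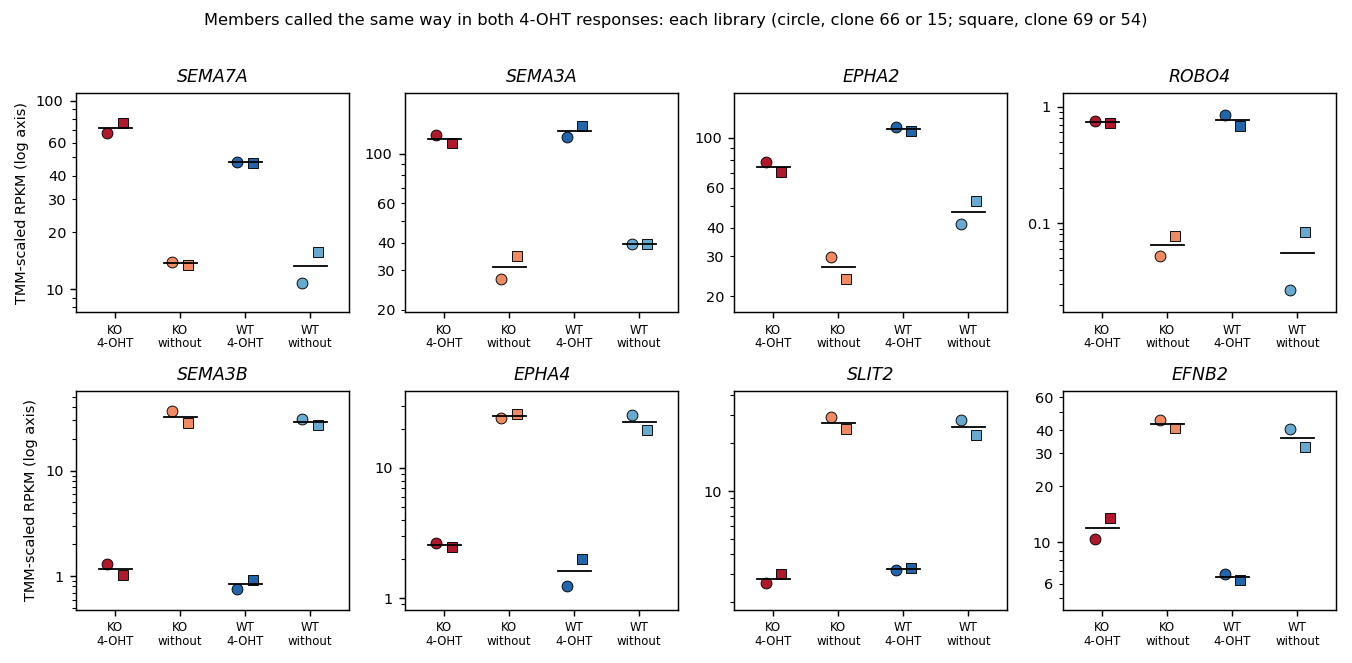
TMM-scaled RPKM (log axis) of 8 members called in the same direction in both genotypes, in each library, with bars at the mean of the 2 clones. In the upper panels all libraries with 4-OHT lie above those without it, and in the lower panels all lie below. ROBO4 reached the read minimum for testing only in libraries with 4-OHT.

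Among the secreted semaphorins SEMA3B, SEMA3C and SEMA3D fell in both genotypes, and SEMA3A rose in both. SEMA3B, a candidate tumour suppressor on the short arm of chromosome 3, lies on chromosome 3 at 50267558 to 50277546 on the plus strand. It measured 1.3 and 1.02 RPKM in KO clones with 4-OHT and 36.5 and 28.4 without it, and 0.761 and 0.919 in WT clones with 4-OHT and 30.8 and 27.4 without it. These are falls of 25.8-fold in KO clones (log2 -4.69 ± 0.17 SE, adjusted p = 2.88e-06) and 31.2-fold in WT clones (log2 -4.96 ± 0.17 SE, adjusted p = 2.92e-06). SEMA3C, a secreted ligand known from heart and vessel development, measured 15.2 and 13.3 RPKM in KO clones with 4-OHT and 77.7 and 72.4 without it. In WT clones it measured 33.3 and 25.7 RPKM with 4-OHT and 105 and 75.4 without it. It fell 5.24-fold in KO and 3.03-fold in WT clones. SEMA3D, another class 3 ligand, measured 0.761 and 1.19 RPKM in KO clones with 4-OHT and 10.5 and 8.66 without it, and 0.57 and 0.653 in WT clones with 4-OHT and 3.76 and 3.38 without it. It fell 9.14-fold in KO and 5.17-fold in WT clones.

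SEMA3A, the prototype repellent that signals through NRP1, measured 121 and 112 RPKM in KO clones with 4-OHT and 27.5 and 34.8 without it, and 119 and 133 in WT clones with 4-OHT and 39.4 and 39.2 without it. It rose 3.76-fold in KO clones (log2 1.91 ± 0.12 SE, adjusted p = 1.97e-05) and 3.18-fold in WT clones (log2 1.67 ± 0.12 SE, adjusted p = 4.76e-05). In reads, these were 1521 and 1499 in KO clones with 4-OHT and 377 and 488 without it, and 1697 and 1654 in WT clones with 4-OHT and 534 and 509 without it. SEMA3A made up 87.2% of the summed class 3 RPKM in KO clones with 4-OHT and 20.8% without it, and 79.6% in WT clones with 4-OHT and 24.3% without it. That level rests on a listed transcript of 568 bases, where all annotated exons of SEMA3A span 9371 bases. The listed transcript was also short for SEMA4B (559 of 7006 exon bases), SEMA3D (1605 of 8062) and SEMA4D (4258 of 14160). The 226 protein-coding genes whose listed transcript held at most 10% of their exon bases had a median of 11.8 RPKM per listed length and 0.884 per kilobase of all exons. For the 2510 genes with 90% to 110% these medians were 5.62 and 5.40. Per kilobase of all exons SEMA3A averaged 7.07 in KO clones with 4-OHT and 7.62 in WT clones with 4-OHT, where SEMA3C averaged 5.5 and 11.4. The share of SEMA3A against other genes therefore depends on the transcript chosen, whereas its folds compare groups over the same length.

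**Figure D3:**
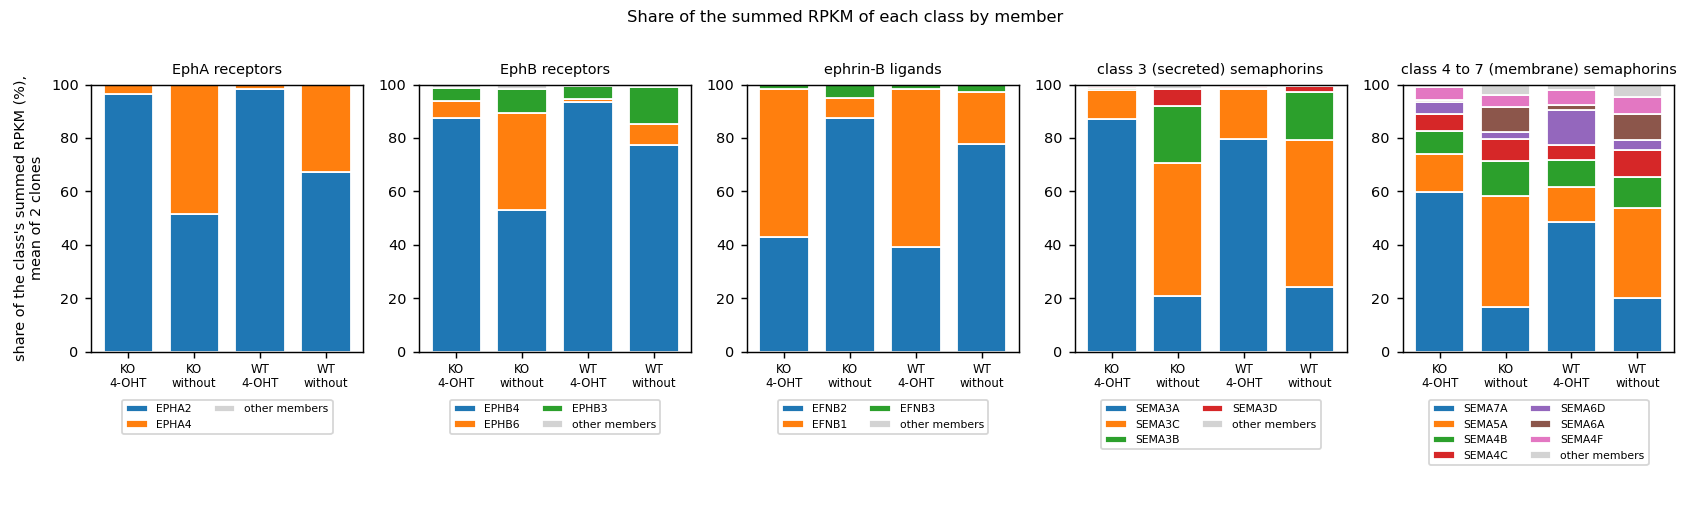
Share of each class's summed RPKM (%, mean of 2 clones) taken by each member, in KO clones with and without 4-OHT and in WT clones with and without 4-OHT. The largest member with 4-OHT was EPHA2, EPHB4, EFNB1, SEMA3A or SEMA7A, whose shares were all higher with 4-OHT than without it in each genotype. SEMA3A ranks on a short listed transcript, and per kilobase of all exons SEMA3C (11.4) was above SEMA3A (7.62) in WT clones with 4-OHT.

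Among the membrane semaphorins, SEMA7A and SEMA6D rose while SEMA6A, SEMA5A and SEMA4D fell. SEMA7A, a GPI-anchored ligand of plexin C1 and of beta-1 integrin, lies on chromosome 15 at 74409289 to 74433958 on the minus strand. It measured 67.1 and 76.6 RPKM in KO clones with 4-OHT and 13.9 and 13.5 without it, and 47.4 and 46.7 in WT clones with 4-OHT and 10.8 and 15.7 without it. It rose 5.2-fold in KO clones (log2 2.38 ± 0.16 SE, adjusted p = 2.57e-05) and 3.59-fold in WT clones (log2 1.84 ± 0.16 SE, adjusted p = 0.000113). SEMA7A supplied 59.9% of the membrane semaphorin RPKM in KO clones with 4-OHT and 16.7% without it, and 48.6% in WT clones with 4-OHT and 20.1% without it. SEMA6D, a transmembrane ligand of plexin A1, measured 6.6 and 4.33 RPKM in KO clones with 4-OHT and 2.12 and 2.05 without it. In WT clones it measured 13 and 12.1 RPKM with 4-OHT and 2.71 and 2.14 without it. It rose 2.5-fold in KO clones and 5.03-fold in WT clones, and the difference of these responses missed the threshold (log2 -1.01 ± 0.29 SE, adjusted p = 0.0793).

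SEMA5A, a semaphorin with thrombospondin repeats and the most abundant of the membrane class without 4-OHT, averaged 17 ± 1.5 RPKM in KO clones with 4-OHT and 34.3 ± 3.4 without it, and 12.6 ± 0.68 in WT clones with 4-OHT and 22.7 ± 5.1 without it. It fell 2.01-fold in KO and 1.77-fold in WT clones. SEMA4D, the ligand of plexin B1, fell 2.41-fold in KO and 3.09-fold in WT clones. SEMA4F rose 1.54-fold in KO and 1.32-fold in WT clones. Other members were called in 1 genotype: SEMA4A (2.5-fold) and SEMA4G (2.02-fold) fell in KO clones, SEMA4C fell 1.26-fold in WT clones, and SEMA4B (1.29-fold) and SEMA6B (1.8-fold) rose in WT clones. SEMA6B was tested only because of its reads in WT clones with 4-OHT. None of these 5 was called in the test of the difference between the genotypes' responses (adjusted p = 0.0982 to 0.251). SEMA6C was called in neither genotype.

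Of the 8 tested plexins, the semaphorin receptors, 3 rose and 4 fell in KO clones, and 2 rose and 4 fell in WT clones. Over all tested genes 28.9% rose and 27.0% fell in KO clones, and 25.4% and 23.7% in WT clones. Whether plexins differ from all genes was not tested. PLXNB2, the receptor of SEMA4C and the most abundant plexin, measured 57.8 and 52.7 RPKM in KO clones with 4-OHT and 89 and 76.3 without it, and 62.9 and 57.8 in WT clones with 4-OHT and 95.5 and 97.5 without it. It fell 1.49-fold in KO and 1.6-fold in WT clones. PLXNB1 fell 3.66-fold and 2.69-fold in KO and WT clones, and PLXND1, the receptor of SEMA3E, fell 1.3-fold and 1.7-fold. SEMA3E itself had 0 reads in all 8 libraries, which allows up to 3 reads in each. PLXNA1, a co-receptor with neuropilins for class 3 semaphorins, measured 34.4 and 33.7 RPKM in KO clones with 4-OHT and 21.3 and 20.5 without it, and 35.8 and 35.6 in WT clones with 4-OHT and 23.2 and 23.2 without it. It rose 1.63-fold in KO and 1.54-fold in WT clones (adjusted p = 8.73e-05 and 0.000223). PLXNA2, a receptor of SEMA6A, measured 2.79 and 2.42 RPKM in KO clones with 4-OHT and 1.03 and 0.863 without it, and 2.35 and 2.64 in WT clones with 4-OHT and 1.05 and 1.21 without it. It rose 2.59-fold in KO and 2.12-fold in WT clones. PLXNB3 rose 1.87-fold in KO clones and was not called in WT clones (log2 0.82 ± 0.31 SE, adjusted p = 0.0608). PLXNA3 was called in neither genotype.

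The neuropilins, which hold secreted semaphorins on plexins and also bind VEGF, were led by NRP1. It measured 98.1 and 87.3 RPKM in KO clones with 4-OHT and 79.5 and 80.0 without it, and 80.9 and 80.1 in WT clones with 4-OHT and 72.3 and 67.9 without it. It rose 1.16-fold in KO clones (log2 0.21 ± 0.08 SE, adjusted p = 0.0492), a call that ended with the clone as a block (adjusted p = 0.058), and was not called in WT clones (log2 0.20 ± 0.08 SE, adjusted p = 0.0678). NRP2, the receptor of SEMA3F, fell 1.57-fold in KO and 1.56-fold in WT clones.

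Netrin RNA was nearly all NTN4, which was the most strongly lowered member in KO clones. NTN4 encodes netrin-4, a basement membrane protein that binds laminin, and lies on chromosome 12 at 95657807 to 95791152 on the minus strand. It measured 4.1 and 4.71 RPKM in KO clones with 4-OHT and 214 and 197 without it, and 19.6 and 22.7 in WT clones with 4-OHT and 174 and 116 without it. NTN4 fell 45.7-fold in KO clones (log2 -5.51 ± 0.18 SE, adjusted p = 2.14e-06) and 6.71-fold in WT clones (log2 -2.75 ± 0.18 SE, adjusted p = 3.76e-05). NTN3 was low, with 13 and 9 reads in KO clones with 4-OHT and 45 and 28 without it, and 4 and 4 in WT clones with 4-OHT and 15 and 53 without it. It fell in WT clones (log2 -1.97 ± 0.50 SE, adjusted p = 0.0146) and was not called in KO clones (log2 -1.29 ± 0.50 SE, adjusted p = 0.0618). UNC5B, the only netrin receptor of the UNC5 family with more than 1 read in a library, changed in opposite directions in KO and WT clones. NTN1, the founding netrin, had 2 to 13 reads.

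SLIT2, a secreted repellent, and its receptor ROBO1 both fell in each genotype, SLIT2 the more. SLIT2 measured 2.64 and 2.99 RPKM in KO clones with 4-OHT and 29.3 and 24.6 without it, and 3.18 and 3.3 in WT clones with 4-OHT and 27.9 and 22.5 without it. It fell 9.27-fold in KO clones (log2 -3.21 ± 0.14 SE, adjusted p = 4.97e-06) and 7.53-fold in WT clones (log2 -2.91 ± 0.14 SE, adjusted p = 1.02e-05). ROBO1 measured 12 and 12.4 RPKM in KO clones with 4-OHT and 19.3 and 17.7 without it, and 11.5 and 12 in WT clones with 4-OHT and 19.4 and 20.3 without it. It fell 1.51-fold in KO and 1.68-fold in WT clones. ROBO4, known as the Robo of endothelial cells, was low and rose in both genotypes. It reached the read minimum only in libraries with 4-OHT, so it was tested through the state where it was high. It had 78 and 80 reads in KO clones with 4-OHT and 6 and 9 without it, and 100 and 70 in WT clones with 4-OHT and 3 and 9 without it. The rise was 5.07-fold in KO clones (log2 2.34 ± 0.26 SE, adjusted p = 0.000223) and 5.61-fold in WT clones (log2 2.49 ± 0.26 SE, adjusted p = 0.000238). Endothelial markers changed in both directions with 4-OHT. Of 10 in the list, 5 were tested, of which 2 rose and 1 fell in KO clones, and 1 rose and 2 fell in WT clones. The shares over all tested genes were 28.9% and 27.0% in KO clones, and 25.4% and 23.7% in WT clones. TIE1 had 83 and 80 reads in KO clones with 4-OHT and 7 and 8 without it, and 113 and 160 in WT clones with 4-OHT and 44 and 68 without it. PECAM1 had 37 and 35 reads in KO clones with 4-OHT and 11 and 9 without it, and 26 and 27 in WT clones with 4-OHT and 17 and 16 without it. VWF went the other way, with 8 and 8 reads in KO clones with 4-OHT and 18 and 21 without it. In WT clones VWF had 5 and 12 reads with 4-OHT and 35 and 46 without it. CLDN5 had 10 and 27 reads in KO clones with 4-OHT and 55 and 37 without it. In WT clones CLDN5 had 3 and 14 reads with 4-OHT and 16 and 59 without it. Another 4 markers, CDH5 and KDR among them, had at most 3 reads in every library. The list summed to 6.65 to 9.29 RPKM with 4-OHT and 11.2 to 16.6 without it, a sum led by EGFL7, which fell in both genotypes. The part of such RNA in the ROBO4 result was not tested. ROBO2, ROBO3 and SLIT3 were called in neither genotype.

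With any 1 library left out, all 36 calls in KO clones and all 32 in WT clones kept their direction, though SEMA6B could not be tested without either WT library with 4-OHT. In each of these calls the states did not overlap, so leaving out 1 library could not turn the direction. Estimates moved by at most 1.32-fold in KO clones, and in WT clones only NTN3 moved by over 1.5-fold, with a log2 change of -2.77 without untreated clone 15 and -1.17 without untreated clone 54. The p-values were less stable, since a group is then down to 1 library. Of the 36 calls in KO clones, 30 held under every alternative run, and of the 32 calls in WT clones 26 did. Both of these counts include ROBO4, and the 30 include EFNA3, whose responses are not independent of the filter. The KO calls that ended when a KO library was left out were NRP1, NRP2, EPHB3, PLXND1, PLXNB3 and UNC5B. They numbered 4 without clone 66 with 4-OHT (adjusted p = 0.0672 to 0.268), 4 without clone 69 with 4-OHT (0.0564 to 0.172), 5 without untreated clone 66 (0.101 to 0.162) and 4 without untreated clone 69 (0.071 to 0.148). Leaving out a WT library with 4-OHT ended NRP1 (0.0701 to 0.0703) and, for clone 54, PLXNB3 (0.0506). The WT calls that ended without a WT library were NRP2, NTN3, SEMA4B, SEMA4C, SEMA4F and SEMA6B. They numbered 2 without clone 15 with 4-OHT (adjusted p = 0.06 to 0.139), 5 without clone 54 with 4-OHT (0.0538 to 0.189), 4 without untreated clone 15 (0.106 to 0.175) and 1 without untreated clone 54 (0.174). Leaving out a KO library ended SEMA4F (0.0592 to 0.0641) and, for the untreated ones, SEMA4B (0.0684 to 0.0686). EFNB1 was called in WT clones when untreated clone 54 was left out (log2 0.53). Gained calls were followed only for members called in the difference between the genotypes' responses.

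The promoters of members called in the same direction in both genotypes were compared by sequence. RefSeq windows on GRCh38.p14, from 250 bases before the annotated start to 50 after it, were matched for 58 of the 68 members and for 24 of the 27 called in the same direction in both genotypes. The listed transcript started within the window for 11 of these 24. From those 11, the 2 members with the largest summed rise and the 2 with the largest summed fall are printed. Capitals mark matches on either strand to the motif of AP-1 (TGANTCA), of ETS factors (CCGGAAGT), of E-box factors (CACGTG), of the TATA box (read as TATAAA) and of SP/KLF factors (GGGCGG), and no 2 matches overlapped.
SEMA7A (chr15:74433909-74434208, minus strand, rose): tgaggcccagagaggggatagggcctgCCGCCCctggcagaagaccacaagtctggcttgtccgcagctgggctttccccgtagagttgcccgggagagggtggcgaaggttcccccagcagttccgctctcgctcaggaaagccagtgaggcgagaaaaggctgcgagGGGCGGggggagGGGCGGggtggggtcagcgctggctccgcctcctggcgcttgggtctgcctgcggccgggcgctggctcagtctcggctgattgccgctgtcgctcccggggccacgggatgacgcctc
SEMA6D (chr15:47183839-47184138, plus strand, rose): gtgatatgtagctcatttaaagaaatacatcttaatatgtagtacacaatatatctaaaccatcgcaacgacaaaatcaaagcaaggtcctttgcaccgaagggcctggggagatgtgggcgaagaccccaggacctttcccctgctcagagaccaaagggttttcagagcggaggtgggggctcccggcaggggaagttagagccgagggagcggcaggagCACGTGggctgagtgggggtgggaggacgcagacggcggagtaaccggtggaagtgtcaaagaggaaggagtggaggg
EFNB2 (chr13:106535613-106535912, minus strand, fell): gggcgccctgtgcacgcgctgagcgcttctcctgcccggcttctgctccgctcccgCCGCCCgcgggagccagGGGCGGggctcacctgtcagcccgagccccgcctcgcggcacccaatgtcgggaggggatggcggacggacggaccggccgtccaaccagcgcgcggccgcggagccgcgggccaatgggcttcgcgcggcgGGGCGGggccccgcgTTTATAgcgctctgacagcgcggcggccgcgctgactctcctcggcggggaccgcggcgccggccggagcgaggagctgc
SEMA3C (chr7:80922340-80922639, minus strand, fell): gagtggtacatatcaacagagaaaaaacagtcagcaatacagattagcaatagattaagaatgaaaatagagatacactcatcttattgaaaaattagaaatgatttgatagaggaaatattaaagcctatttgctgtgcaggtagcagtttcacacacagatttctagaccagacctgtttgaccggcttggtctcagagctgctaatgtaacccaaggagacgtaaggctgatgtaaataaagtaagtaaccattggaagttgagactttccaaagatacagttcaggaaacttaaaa
The SEMA7A window held 3 SP/KLF matches and the SEMA6D window 1 E-box. The EFNB2 window held 3 SP/KLF matches and 1 TATA box, at a GC content of 78.7%, whereas the SEMA3C window held no match at a GC content of 36.0%. Over all windows, SP/KLF matches stood in 6 of 7 members that rose in both genotypes and 12 of 17 that fell in both, against 45% of all 35116 promoters. They were as frequent in other members, with 14 of 16 other tested members and 13 of 18 under the filter, and the median GC content was 62.3% to 70.5% over these sets of members against 58.7% over all promoters. AP-1 matches stood in 0 of 7 and 1 of 17 (7.71% of all promoters), ETS matches in 0 of 7 and 0 of 17 (4.14%), E-boxes in 1 of 7 and 1 of 17 (7.26%), and TATA boxes in 0 of 7 and 1 of 17 (11.5%). Each member was counted with 1 window, whereas the 35116 promoters can hold several windows of a gene, so these shares are on unlike units. The windows are a description of sequence, since no binding was measured.

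The genotypes were next compared in the presence of 4-OHT, where 5 members were higher and 9 lower in KO than in WT clones. Of all tested genes 6.73% were higher and 7.73% lower. EPHB6 stood apart in both states. It measured 1.65 and 1.63 RPKM in KO clones with 4-OHT against 0.139 and 0.125 in WT clones with 4-OHT, and 7.82 and 7.49 in KO clones without it against 1.65 and 1.08 in WT clones without it. It was 7.5-fold higher in KO clones with 4-OHT (log2 2.91 ± 0.21 SE, adjusted p = 0.00187) and 5.39-fold higher without it (log2 2.43 ± 0.21 SE, adjusted p = 0.00551). NTN4 was 4.71-fold lower in KO than in WT clones with 4-OHT (log2 -2.24 ± 0.18 SE, adjusted p = 0.00278), and was not called without it (log2 0.53 ± 0.18 SE, adjusted p = 0.126). EFNB2 was 1.82-fold higher in KO clones with 4-OHT (adjusted p = 0.0137), SEMA7A 1.52-fold and SEMA4C 1.35-fold higher. SEMA4C measured 7.16 and 7.47 RPKM in KO clones with 4-OHT and 6.53 and 6.98 without it, and 5.7 and 5.11 in WT clones with 4-OHT and 7.11 and 6.56 without it. EPHB2, an ephrin-B receptor with few reads, was 2.64-fold higher in KO clones with 4-OHT (log2 1.40 ± 0.33 SE, adjusted p = 0.0331).

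Semaphorins, with 5 class 3 and 12 membrane members among those tested, gave 6 of the 9 members lower and 2 of the 5 higher in KO clones with 4-OHT. Both the 6 and the 9 include SEMA6B, whose call supports nothing. SEMA6D was 2.31-fold lower (log2 -1.21 ± 0.20 SE, adjusted p = 0.0122), SEMA6A 2.32-fold, SEMA3C 2.05-fold, SEMA4G 2.18-fold, SEMA4A 2.13-fold and SEMA6B 2.46-fold. SEMA4G measured 0.204 and 0.273 RPKM in KO clones with 4-OHT and 0.605 and 0.557 without it, and 0.547 and 0.734 in WT clones with 4-OHT and 0.757 and 0.696 without it. Its exons overlap MRPL43 on the opposite strand over 22.3% of their length, and MRPL43 had 995 to 1653 reads. The library kit was stranded, but the strand setting of the counting is not given in the sources used here, so reads of MRPL43 in SEMA4G cannot be told apart. SEMA6B, which passed the filter only through WT clones with 4-OHT, rested on 1 and 2 reads in KO clones with 4-OHT and 5 and 3 without it, and 18 and 16 in WT clones with 4-OHT and 3 and 8 without it. EPHA2 was 1.48-fold lower in KO clones with 4-OHT and 1.75-fold lower without it, and PLXNA3 1.43-fold lower with it.

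Of these 14 calls with 4-OHT, EPHB6 and NTN4 held under every alternative. All 14 kept their direction wherever they were tested with 1 library left out, and moved by at most 1.32-fold. The genotypes did not overlap in any of the 14, so the direction could not turn. In groups cut to 1 library the other 12 missed the threshold at least once. There were 8 fewer calls without KO clone 66 with 4-OHT (adjusted p = 0.0596 to 0.144), 12 fewer without KO clone 69 (0.0626 to 0.226), 12 fewer without WT clone 15 and 10 fewer without WT clone 54. The last 2 counts include SEMA6B, which then fell under the filter, and the others had adjusted p = 0.0632 to 0.171 and 0.0545 to 0.14. Leaving out an untreated KO library ended 5, EPHB2, PLXNA3, SEMA4A, SEMA4C and SEMA7A (0.0575 to 0.0861). EFNB1 was called higher in KO clones with 4-OHT without untreated WT clone 15 or 54 (log2 0.63 in each fit, as with all libraries). The counts of fewer calls are of calls that ended. Gained calls were followed only for members called in the difference between the genotypes' responses, so other members that gained a call are not named.

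**Figure D4:**
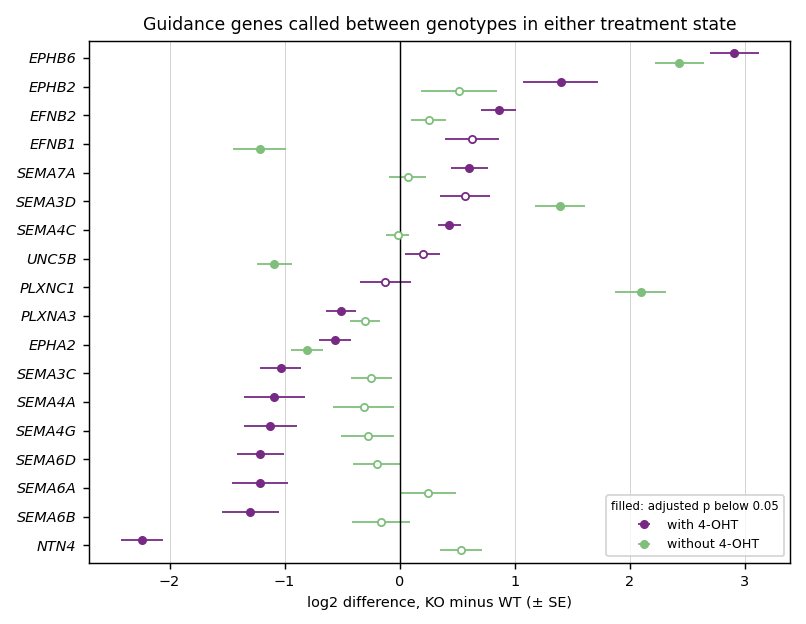
Log2 difference between KO and WT clones (x axis, ± SE of the fit) with 4-OHT (purple, above) and without it (green, below) for the 18 members called in at least 1 of these comparisons. Filled points have an adjusted p below 0.05. EPHB6 and EPHA2 are filled in both states, EPHB6 to the right and EPHA2 to the left of 0.

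Without 4-OHT, 3 members were higher and 3 lower in KO than in WT clones, where 2.64% of all tested genes were higher and 3.77% lower. Besides EPHB6, PLXNC1 was 4.27-fold higher in KO clones (log2 2.09 ± 0.22 SE, adjusted p = 0.00767) and SEMA3D 2.63-fold higher (log2 1.39 ± 0.22 SE, adjusted p = 0.017). EFNB1 was 2.33-fold lower (log2 -1.22 ± 0.23 SE, adjusted p = 0.0300), UNC5B 2.13-fold lower (log2 -1.09 ± 0.15 SE, adjusted p = 0.013) and EPHA2 1.75-fold lower (log2 -0.81 ± 0.14 SE, adjusted p = 0.0238). All 6 kept their direction with any 1 library left out, and moved by at most 1.29-fold. The genotypes did not overlap in any of the 6, so the direction could not turn. All 6 missed the threshold without untreated KO clone 66 (adjusted p = 0.0602 to 0.131) or untreated KO clone 69 (0.0606 to 0.178). EFNB1, EPHA2 and SEMA3D also ended without untreated WT clone 54 (0.0554 to 0.0683), and EFNB1 without either KO library with 4-OHT (0.0611 to 0.0615). NTN4 was called higher in KO clones without untreated WT clone 15 (log2 0.82), and SEMA3F without WT clone 15 with 4-OHT (log2 0.92). Gained calls were followed only for members called in the difference between the genotypes' responses, so other members that gained a call are not named.

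The difference of the responses asks which genes 4-OHT moved differently in KO than in WT clones, and it uses the same libraries as the comparisons above. It was called for 6 members, 2 with a higher and 4 with a lower KO response, where 4.39% of all tested genes had a higher and 3.12% a lower one. NTN4 fell further in KO clones, by a log2 difference of -2.77 ± 0.26 (SE; adjusted p = 0.00522), and kept this call under every alternative. PLXNC1, the receptor of SEMA7A, measured 0.109 and 0.113 RPKM in KO clones with 4-OHT and 2.37 and 2.88 without it, and 0.133 and 0.128 in WT clones with 4-OHT and 0.605 and 0.473 without it. It fell 12.9-fold in KO and 2.76-fold in WT clones (difference of responses log2 -2.22 ± 0.31 SE, adjusted p = 0.00935). The genotypes were not called different with 4-OHT (log2 -0.13 ± 0.22 SE, adjusted p = 0.75). CEP83, with 135 to 192 reads, overlaps 1.79% of the PLXNC1 exon bases on the opposite strand. SEMA6A, a transmembrane semaphorin, measured 0.987 and 0.524 RPKM in KO clones with 4-OHT and 7.52 and 8.03 without it, and 1.72 and 1.9 in WT clones with 4-OHT and 6.29 and 6.76 without it. It fell 9.56-fold in KO and 3.47-fold in WT clones (difference of responses log2 -1.46 ± 0.34 SE, adjusted p = 0.0452), and this call ended with the clone as a block (adjusted p = 0.0501).

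SEMA3F, a ligand of NRP2, fell 2.99-fold in KO clones and was not called in WT clones. It measured 0.662 and 0.74 RPKM in KO clones with 4-OHT and 2.5 and 2.11 without it, and 0.866 and 1.43 in WT clones with 4-OHT and 1.07 and 1.27 without it (difference of responses log2 -1.53 ± 0.35 SE, adjusted p = 0.045). EFNB1 measured 16 and 14.5 RPKM in KO clones with 4-OHT and 3.91 and 3.53 without it, and 8.67 and 11.1 in WT clones with 4-OHT and 6.77 and 11.4 without it. Its KO libraries with 4-OHT were above all others and its untreated KO libraries below all others, while the WT states overlapped (difference of responses log2 1.84 ± 0.33 SE, adjusted p = 0.0205). UNC5B, a receptor that signals differently with and without netrin, measured 9.36 and 8.73 RPKM in KO clones with 4-OHT and 6.78 and 5.42 without it, and 8.6 and 7.19 in WT clones with 4-OHT and 11.8 and 14.4 without it. It rose 1.48-fold in KO clones and fell 1.65-fold in WT clones (difference of responses log2 1.29 ± 0.22 SE, adjusted p = 0.0165).

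All 6 kept their direction with any 1 library left out. For each, every ratio of a KO library with 4-OHT to one without it lay on the same side of every such WT ratio. The direction could therefore not turn. The log2 difference then ranged from 1.47 to 2.21 for EFNB1, 1.13 to 1.45 for UNC5B, -2.37 to -2.07 for PLXNC1, -1.86 to -1.19 for SEMA3F, -1.86 to -1.06 for SEMA6A and -3.06 to -2.48 for NTN4. With a group cut to 1 library, 5 of the 6 missed the threshold at least once. EFNB1 did so without either KO library with 4-OHT, either untreated KO library or WT clone 15 with 4-OHT (adjusted p = 0.0701 to 0.0907). UNC5B missed it without KO clone 66 with 4-OHT (0.062), KO clone 69 with 4-OHT (0.0639) or untreated KO clone 69 (0.0667), and PLXNC1 without untreated KO clone 69 (0.0504). SEMA3F missed it without any library other than WT clone 15 with 4-OHT (0.0658 to 0.151), and SEMA6A without any but KO clone 66 with 4-OHT (0.053 to 0.157). Division genes moved with these contrasts: all 8 of a list with MKI67 and TOP2A were higher in KO than in WT clones with 4-OHT, lower without it, and had a higher KO response. Over all tested genes 6.73% were higher in KO clones with 4-OHT, 3.77% lower without it, and 4.39% had a higher KO response. With 4-OHT 8 of 8 division genes rose in KO clones and 2 of 8 in WT clones, where 28.9% and 25.4% of all tested genes rose. Their summed level was 360.1 to 365 RPKM in KO clones with 4-OHT and 74.6 to 78.5 without it, and 179 to 222 in WT clones with 4-OHT and 142 to 192 without it. The part of division in these differences was not tested.

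**Figure D5:**
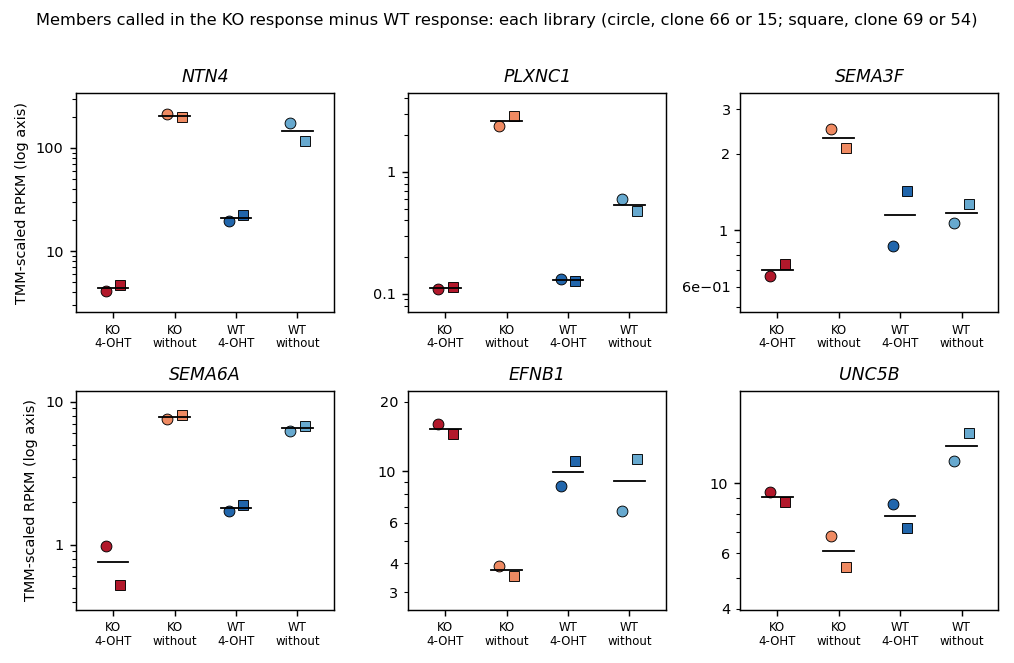
TMM-scaled RPKM (log axis) in each library of the 6 members called in the difference of responses, with bars at the mean of the 2 clones. NTN4 with 4-OHT lies lower in KO than in WT clones, and PLXNC1 without 4-OHT lies higher.

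Signalling partners of the families changed in both directions. Of all tested genes 28.9% were higher and 27.0% lower in KO clones, and 25.4% and 23.7% in WT clones. In each list the share that fell was above that of all genes. The share that rose was above it in some lists and below it in others. The lists held 6 to 18 tested genes, and no test of them against all genes was run. Of 16 tested Eph and ephrin partners, 5 rose and 7 fell in KO clones, and the same numbers in WT clones. The SRC-family kinase FYN rose 1.96-fold in KO and 2.19-fold in WT clones, and SHB, an adaptor, rose 2.93-fold and 2.37-fold. Of 18 semaphorin partners, 4 rose and 9 fell in KO clones, and 3 rose and 6 fell in WT clones. MICAL2, an actin-oxidising enzyme of a family that acts downstream of plexins, rose 4.89-fold in KO and 4.36-fold in WT clones (adjusted p = 9.97e-06 and 1.76e-05). Of 6 netrin partners, 1 rose and 2 fell in KO clones, and 3 rose and 2 fell in WT clones. FLRT2, a transmembrane ligand of UNC5 receptors, fell 4.05-fold in KO and 5.18-fold in WT clones. Of 10 Slit and Robo partners, 4 rose and 4 fell in KO clones, and 5 rose and 4 fell in WT clones. ENAH, an actin regulator of the Ena/VASP family, fell 2.77-fold in KO and 1.95-fold in WT clones.

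The 21 members under the filter were near or below the limit of detection. EPHA10, SEMA5B, SEMA3E and UNC5C had 0 reads in all 8 libraries, which allows up to 3 reads in each. EPHA6, EPHA7, EPHA8, SEMA3G, UNC5A, UNC5D, EFNA1, EFNA2, EFNA5 and PLXNA4 had 1 or 2 reads at most in any library. The other 7 were EPHA1, EPHA3, EPHA5, EPHB1, NTN1, NTN5 and SLIT1, with 4 to 18 reads in their highest library. EPHA3 had 12 reads in untreated WT clone 15, 1 in untreated WT clone 54 and 0 in the other 6 libraries. These limits cover counting error only.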

How the data were processed

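Total RNA from 8 libraries (2 clones in each of 4 groups) was sequenced with a stranded kit, per the labels' protocols. STAR, featureCounts, edgeR and GRCh38 are named in the submitters' processing notes, with no versions or settings, and the strand setting of the counting is not given in the sources used here. For each gene and library 1 RPKM value was deposited by the authors, on the length of 1 listed transcript, in a table of 58870 rows, of which 45 pseudoautosomal Y copies were left out. Depth was recovered from the steps between low RPKM values: with the GENCODE 29 length of the listed transcript, 100.0% of the values of 29722 genes came out within 0.1 of a whole read. The length came from the steps themselves for 6549 genes and from another transcript version for 127. These reads gave the library sizes, the filter (10 reads at the median library size in at least 2 libraries, and 15 reads in all) and a count-type alternative.

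RPKM values were divided by TMM factors, and log2(RPKM + 0.1) was fitted with limma 3.58.1 (trend and robust) in R 4.3.3, with 4 group means, 8 libraries and 4 residual degrees of freedom. Tests were two-sided and adjusted by Benjamini-Hochberg over 16485 genes, with a threshold of 0.05. The fit was checked on simulated reads, without TMM scaling, with the same spread for all genes and no clone effect. That setting is simpler than the data. Tables and figures used pandas 2.3.3, numpy 2.4.6 and matplotlib 3.10.9. The same clone without and with 4-OHT is a pair by design. Deviations of the paired libraries from their group means correlated at r = 0.00124 in KO and 0.311 in WT clones. The fit without the clone block is the one reported, and the blocked value is printed where it changed a call. Alternatives changed the scaling, pseudocount, filter, test, libraries fitted and block, and left out each library in turn. A clone left alone in its group was then assumed to vary like the others.

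The members and the gene lists were chosen with earlier results of these data known. Values in every library are given for members called in the difference of responses, up to 8 with the largest called change in each direction of each 4-OHT response, up to 5 in each direction of each genotype comparison, and the most abundant member of each role. Partner genes are the few with the smallest p.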

Additional observations from a re-analysis of the deposited data

Results flagged for a closer look

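The response to 4-OHT differed between KO and WT clones for 6 guidance genes by the test of the difference itself (limma, adjusted over all genes). NTN4 fell further in KO clones, by -2.77 on the log2 scale (adjusted p = 0.00522), as did PLXNC1 by -2.22 (adjusted p = 0.00935) and SEMA6A by -1.46 (adjusted p = 0.0452). SEMA3F fell in KO clones and was not called in WT clones, a difference of -1.53 (adjusted p = 0.045). EFNB1 rose in KO clones and was not called in WT clones, a difference of 1.84 (adjusted p = 0.0205). UNC5B rose in KO and fell in WT clones, a difference of 1.29 (adjusted p = 0.0165). Both KO clones moved in the same direction for each of the 6. The WT clones moved in opposite directions for EFNB1, higher with 4-OHT in clone 15 and lower in clone 54, and for SEMA3F, lower with 4-OHT in clone 15 and higher in clone 54. NTN4 passed the threshold with any 1 library left out. The other 5 kept their direction, which could not turn, but missed the threshold without at least 1 library.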

How the results depend on the processing

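Of 94 calls among the members, 59 held under every alternative run. Leaving structural RNA out of the scaling changed none of 103 values compared, a pseudocount of 1 ended 1 call, a pseudocount of 0.01 ended 2, and library totals without TMM ended 5. The clone as a block ended NRP1 in the KO response (adjusted p = 0.058) and SEMA6A in the difference of responses (0.0501), and changed no other of 76 values. Limma-voom on recovered reads called 13 members higher and 24 lower in the KO response, and 10 and 22 in the WT response. Without 4-OHT it called 6 members higher in KO clones, as did a filter at 50 reads, against 3. Without a filter, 2 members were higher and 3 lower in KO clones with 4-OHT, 0 were lower without it, and 0 had a higher and 1 a lower KO response. With only the 4 libraries compared, 1 member was lower in KO clones without 4-OHT.

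With 1 library left out at a time, the members called higher in KO clones with 4-OHT numbered 1 to 8 and those lower 1 to 9. Without 4-OHT they numbered 0 to 6 and 0 to 3. A higher KO response was called for 0 to 4 members and a lower one for 1 to 5. The WT response of EFNB1, not called, turned to -0.02 without WT clone 54 with 4-OHT and to -0.21 without untreated WT clone 15, and ran up to 0.53 over all libraries left out. That of SEMA3F, not called, turned to 0.28 without WT clone 15 with 4-OHT and to 0.06 without untreated WT clone 54, and ran down to -0.39. The causes of these changes were not tested. With 2 clones a group, small differences between genotypes were at the limit of the design, and members with few reads carry large counting error.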
